A study of Rattus norvegicus with 9 samples.

Results

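Neuropeptide precursor genes encode the long proteins from which neurons cut small signalling peptides. The 10 genes described here were Npvf, Sst, Npy, Pomc, Gal, Trh, Cartpt, Tac1, Penk and Avp, out of 14217 named genes on the Affymetrix Rat Genome 230 2.0 array, and each was read by 1 probe set. The list was chosen by name, with the signals of these genes on the 9 arrays already known, so their levels are a description, no p-value is given for them, and nothing is read from how many were called. Of the 10, 7 passed a filter on low signals, as did 9956 of the 14217 genes. Pomc, Trh and Avp did not pass.

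The study compared retinal progenitor cells (RPCs) made from rat embryonic stem cells (rESCs) with progenitors taken from the retina, on 9 arrays with 3 biological replicates per group. The rESC-RPC2 cells grew as floating aggregates until day 14 of differentiation, were then plated, and were harvested at day 16. For the rESC-RPC1 cells plating came earlier, at day 10, with a change to N2 medium at day 14 and the same harvest day. Both came from 1 rESC line of the DA rat strain (DA8-16), were started as quick aggregates in serum-free medium with Matrigel and the Wnt inhibitor IWR-1e, and were given serum from day 8. The P-RPC samples were dissociated neural retina from SD rats on postnatal day 1, with no sorting described and no word on whether animals were pooled. Strain and culture therefore differ together between either rESC-RPC group and P-RPC and cannot be told apart, and the same holds for early plating and N2 medium within rESC-RPC1. By the study's methods the replicates came from independent experiments, and how cultures or litters were divided among them is not given.

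A precursor enters the secretory pathway, is packed into dense-core granules, and is cut at pairs of basic residues by prohormone convertases before carboxypeptidases and an amidating enzyme finish the peptide. The peptides then act on G protein-coupled receptors and are destroyed by membrane peptidases. Such precursors mark neuron classes of the hypothalamus and of forebrain interneurons, and in the retina several of them, Sst, Npy, Tac1 and Penk among them, are known from subsets of amacrine cells. In bulk RNA, fewer cells of a type and less RNA per cell cannot be told apart.

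The start regions of 4 genes are printed because these genes carry the largest differences between groups, with Npvf and Sst on the side of the rESC-RPCs and Gal and Cartpt on the side of P-RPC. Each is the 250 bases before the transcript start used in the RefSeq promoter table (build GRCr8), and capitals mark 3 motifs searched on both strands, the cAMP response element TGACGTCA, the homeodomain core TAATTA and the TATA box TATAAA. For Npvf, Sst and Gal that start is the outer end of the gene, while for Cartpt, which has more than 1 RefSeq transcript, it lies 559 bases inside the gene, and the printed window lies inside the gene too. The array files name no genome build.
Npvf, chr4:81047046-81047295, minus strand: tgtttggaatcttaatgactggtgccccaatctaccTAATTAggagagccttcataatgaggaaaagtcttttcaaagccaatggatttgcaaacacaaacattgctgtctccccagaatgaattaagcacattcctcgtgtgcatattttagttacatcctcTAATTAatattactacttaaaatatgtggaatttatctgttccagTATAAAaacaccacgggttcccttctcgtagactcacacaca
Sst, chr11:90461296-90461545, plus strand: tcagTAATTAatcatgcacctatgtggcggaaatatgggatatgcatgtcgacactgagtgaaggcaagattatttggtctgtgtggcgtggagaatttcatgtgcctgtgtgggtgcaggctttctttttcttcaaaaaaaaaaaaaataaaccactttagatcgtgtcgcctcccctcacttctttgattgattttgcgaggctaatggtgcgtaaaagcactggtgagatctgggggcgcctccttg
Gal, chr1:210084573-210084822, minus strand: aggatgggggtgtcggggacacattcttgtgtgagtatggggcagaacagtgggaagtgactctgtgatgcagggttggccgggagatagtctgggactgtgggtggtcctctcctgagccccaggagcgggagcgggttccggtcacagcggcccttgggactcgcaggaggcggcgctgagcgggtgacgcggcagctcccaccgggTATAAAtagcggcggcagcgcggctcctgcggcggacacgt
Cartpt, chr2:32991236-32991485, minus strand: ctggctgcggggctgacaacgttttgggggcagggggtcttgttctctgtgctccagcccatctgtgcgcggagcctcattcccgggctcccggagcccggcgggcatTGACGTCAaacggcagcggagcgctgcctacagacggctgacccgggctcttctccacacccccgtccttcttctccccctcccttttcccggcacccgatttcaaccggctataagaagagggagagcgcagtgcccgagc

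Of the 10 genes, 9 had an entry in the RefSeq promoter table, whose windows run from 250 bases before to 50 after that start. The start was the outer end of the gene in 6 of them and lay inside the gene in 3 (Cartpt, Pomc and Tac1). The full cAMP response element lay in the windows of 2 of them, 142 bases before the table's start in Cartpt and at position 3 after it in Sst, where the 30 bases at chr11:90461537-90461566 read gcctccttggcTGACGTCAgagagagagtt. It was found in 1.83% of all 33469 such windows. TAATTA, found in 5.36% of windows, lay 214 and 87 bases before the Npvf start, 246 bases before the Sst start and 111 bases before the Tac1 start. TATAAA, found in 14.2% of windows, lay 42 bases before the start in Npvf, 41 in Gal and 32 in Pomc. These matches are letters in a window and not measured binding sites, and the windows of Npy, Trh and Avp held none of the 3 motifs.

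The signals are linear MAS5 intensities, brought by the authors to the same overall level on all arrays. A signal of 123, the median of all probe set values, served as the detection threshold, and a gene was tested where at least 3 of the 9 arrays reached it. Signals of different probe sets are not comparable with each other, so each gene is compared only with itself. Where all 3 arrays of 1 group lay under the threshold, the threshold itself was put in their place and the fold is written as "at least". Folds and log2 differences are taken between means of log2 signals, not between the printed mean signals. The main tests used the signals as measured, also where a fold is written as a lower bound. Standard errors (SE) are those of limma's log2 difference, and a gene was called at an adjusted p under 0.05 with a difference of at least 1 on the log2 scale.

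Npvf encodes the RFamide-related peptides, which in the adult rat are made by neurons of the dorsomedial hypothalamus and restrain gonadotropin release. Its signal was 5076, 5203 and 6051 on the rESC-RPC2 arrays, 149, 338 and 300.1 on the rESC-RPC1 arrays, and 79.8, 57.9 and 29.6 on the P-RPC arrays. The 3 groups did not overlap, and every P-RPC array lay under the threshold. The mean signal was 5443 ± 530.3 in rESC-RPC2 and 262 ± 100.2 in rESC-RPC1 (SD, n = 3 each), and the log2 difference was 4.46 (SE 0.364), or 21.97-fold. Against P-RPC, the signal was at least 44.3-fold higher in rESC-RPC2 and at least 2.02-fold higher in rESC-RPC1.

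Sst encodes somatostatin, which inhibits growth hormone release and marks a class of GABAergic interneurons. It was at or above the threshold on all 9 arrays, with signals of 7643, 7270.0 and 7051 in rESC-RPC2, 1308, 1042 and 1478 in rESC-RPC1, and 402, 489.7 and 517 in P-RPC. Again the 3 groups stood in the order rESC-RPC2, rESC-RPC1, P-RPC without overlap. The log2 difference was 3.97 for rESC-RPC2 against P-RPC, 1.44 for rESC-RPC1 against P-RPC and 2.54 for rESC-RPC2 against rESC-RPC1 (SE 0.135 each). Within groups Sst varied little, and the highest rESC-RPC1 array had 1.42 times the signal of the lowest.

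Npy encodes neuropeptide Y, the appetite-stimulating peptide of the arcuate nucleus that interneurons of cortex and retina also make. The rESC-RPC2 arrays had signals of 4306, 4711 and 5154, the rESC-RPC1 arrays 2923, 5661 and 1739, and the P-RPC arrays 1172, 981.9 and 1159.8. All 6 rESC-RPC arrays were above all P-RPC arrays, by 4.28-fold in rESC-RPC2 and 2.78-fold in rESC-RPC1. The 2 rESC-RPC groups overlapped, since replicate 2 of rESC-RPC1 was the highest of all 9 arrays and replicate 3 the lowest of the 6. Their log2 difference was 0.62 (SE 0.32) with all arrays, 1.06 without rESC-RPC1 replicate 2 and 0.21 without replicate 3.

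**Figure D1:**
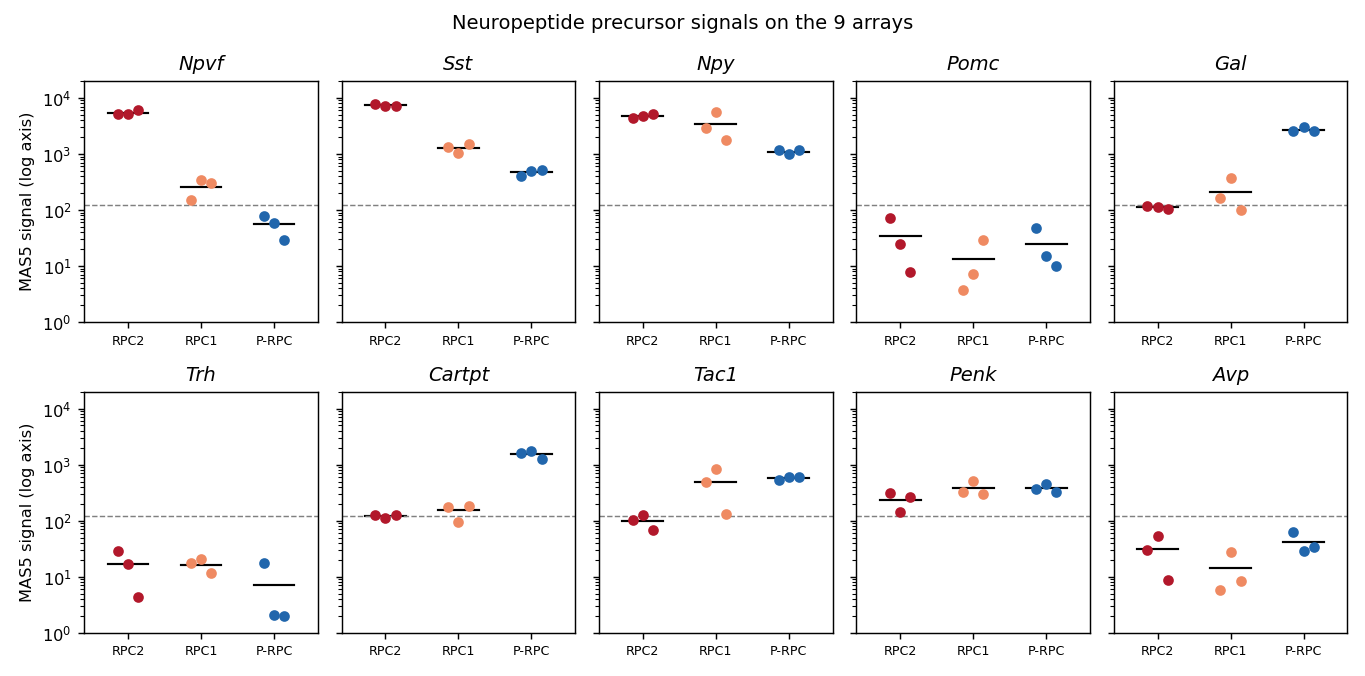
MAS5 signal (log axis) of each of the 10 precursor genes on each array, in rESC-RPC2, rESC-RPC1 and P-RPC from left to right; points are single arrays, bars are group means (n = 3 each) and the dashed line is the threshold of 123. Npvf and Sst separate the 3 groups, Gal and Cartpt are higher on every P-RPC array than on every rESC-RPC array, and Pomc, Trh and Avp lie under it on all 9 arrays.

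Galanin, the product of Gal, is a peptide of many hypothalamic and brainstem neurons that mostly inhibits transmitter release. Its signals were 120.2, 112 and 102 on the rESC-RPC2 arrays, all under the threshold, and 162, 370.7 and 102 on the rESC-RPC1 arrays, of which 2 reached it. The P-RPC arrays had 2556, 2997 and 2573. The mean in P-RPC was 2709 ± 250.1 (SD, n = 3), so Gal in rESC-RPC2 lay at least 22.04-fold under it. In rESC-RPC1 it was 14.8-fold lower than in P-RPC, a log2 difference of -3.89 (SE 0.358), and every rESC-RPC1 array lay below every P-RPC array. The rESC-RPC2 and rESC-RPC1 arrays overlapped.

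Cartpt encodes the CART peptides, which reduce feeding in rats and in the mouse retina mark direction-selective ganglion cells. Its signals were 125, 114 and 125.0 in rESC-RPC2, 176, 96.7 and 184 in rESC-RPC1, and 1588, 1764 and 1268 in P-RPC. Both rESC-RPC groups lay close to the threshold, with 2 of 3 arrays at or above it in each, and overlapped each other. The log2 difference from P-RPC was -3.65 in rESC-RPC2 and -3.38 in rESC-RPC1 (SE 0.232 each), that is 12.6-fold and 10.4-fold lower.

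Tac1 encodes the tachykinins substance P and neurokinin A, transmitters of pain fibres and of striatal and amacrine neurons. Signals were 102, 125.0 and 67.2 in rESC-RPC2, 487.7, 833 and 134 in rESC-RPC1, and 526, 593 and 614.7 in P-RPC. All rESC-RPC2 arrays lay below all others, 6.07-fold below P-RPC (log2 difference -2.60) and 3.99-fold below rESC-RPC1 (log2 difference -2.0, SE 0.527 each), but only 1 of them reached the threshold. The rESC-RPC1 arrays spanned the P-RPC arrays, and the log2 difference of -0.61 between these groups changed sign to 0.14 without rESC-RPC1 replicate 3 and was -1.17 without replicate 2.

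Penk, the precursor of the enkephalins, which are opioid peptides of striatal, hypothalamic and amacrine neurons, differed by less than 1 on the log2 scale in every comparison. Its signals were 313, 142 and 259 in rESC-RPC2, 321, 517 and 298 in rESC-RPC1, and 370.2, 453 and 326 in P-RPC. The rESC-RPC2 arrays lay below the P-RPC arrays (log2 difference -0.75, SE 0.295) and overlapped those of rESC-RPC1 (-0.70). Between rESC-RPC1 and P-RPC the difference was -0.05.

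The remaining precursors were under the threshold on every array. Pomc, the source of corticotropin, melanocortins and beta-endorphin, had signals of 71.7, 25.0 and 7.70 in rESC-RPC2, 3.81, 7.20 and 29.3 in rESC-RPC1, and 48.4, 15.4 and 10.2 in P-RPC. For Trh, which encodes thyrotropin-releasing hormone, the values were 29.3, 17.0 and 4.40 in rESC-RPC2, 17.5, 20.4 and 11.6 in rESC-RPC1, and 17.7, 2.10 and 1.96 in P-RPC. Avp, which encodes vasopressin, gave 29.98, 53.8 and 8.62 in rESC-RPC2, 5.92, 28.1 and 8.28 in rESC-RPC1, and 63.5, 28.4 and 33.4 in P-RPC. No fold is given for these 3 genes, whose groups overlapped in every pair except Avp of P-RPC against rESC-RPC1, where 28.4 stood over 28.1. At such signals a transcript cannot be told from background on this array.

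Over the 7 genes that passed the filter, the pattern differed by gene and not only by group. In rESC-RPC2 against P-RPC, 3 were called higher (Npvf, Sst, Npy), 3 lower (Gal, Cartpt, Tac1) and 1 was not called, beside 10.7% higher and 13.0% lower of all genes tested (23.7% in either direction). In rESC-RPC1 against P-RPC, 3 were called higher (Npvf, Sst, Npy), 2 lower (Gal, Cartpt) and 2 were not called, beside 12.0% higher and 9.56% lower of all genes (21.5%). Between rESC-RPC2 and rESC-RPC1, Npvf and Sst (2 genes) were called higher, 1 lower (Tac1) and 4 were not called, beside 5.02% and 9.25% (14.3%). These counts restate the values by which the list was made and are not a result about it. All 7 genes had arrays that did not overlap between rESC-RPC2 and P-RPC, against 72.9% of all genes, 5 between rESC-RPC1 and P-RPC (66.4% of all genes) and 3 between rESC-RPC2 and rESC-RPC1 (53.9%). The median log2 difference of the 7 was -0.75, -0.05 and -0.27 in these comparisons, which share arrays, beside -0.02, -0.01 and -0.03 over all genes.

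**Figure D2:**
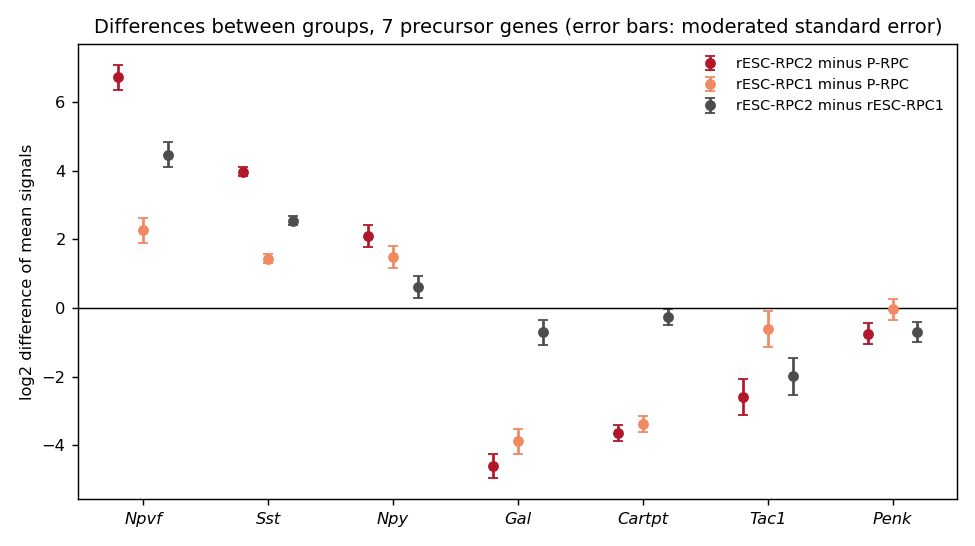
Log2 difference of mean signals (vertical axis) of each of the 7 tested precursor genes, for rESC-RPC2 minus P-RPC, rESC-RPC1 minus P-RPC and rESC-RPC2 minus rESC-RPC1; points are limma's estimates, bars their moderated standard errors, and values above 0 are higher in the group named first. Npvf, Sst and Npy lie above 0 and Gal and Cartpt below it in both comparisons with P-RPC, and signals under the threshold entered as measured, so the points of Npvf and Gal against a group under it are not folds.

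Markers of differentiated retinal cells were mostly at the threshold in P-RPC and under it in the rESC-RPCs. Of 8 photoreceptor marker genes, 6 were at or above the threshold on all P-RPC arrays and 0 on all arrays of either rESC-RPC group, and the summed photoreceptor signal was 292 to 306 in rESC-RPC2, 316 to 579 in rESC-RPC1 and 21924 to 24412 in P-RPC. For 7 amacrine cell markers, the class known to make several of these peptides in the retina, the sum was 336 to 504 in rESC-RPC2, 466 to 615 in rESC-RPC1 and 20700.1 to 22282 in P-RPC. On the rESC-RPC2 arrays every one of these 15 markers but Slc6a9, which reached the threshold on all 9 arrays, was under it. In rESC-RPC1, Neurod1 and Tfap2a reached it on 2 arrays and Pde6h, Rom1 and Pax6 on 1, while Crx, Gnat2, Prdm1, Tfap2b, Ptf1a and Calb2 were under it on all 3. Rcvrn, Rbp3 and Chat were under it on every array, P-RPC included. The 3 GABAergic neuron markers summed to 9742 to 11082 in rESC-RPC2, 3085 to 4224 in rESC-RPC1 and 1213 to 1483 in P-RPC, and the 13 pan-neuronal markers to 55494 to 61564 in rESC-RPC2, 22197 to 31787 in rESC-RPC1 and 27890.0 to 33366 in P-RPC. Mesenchyme and smooth muscle markers, 8 in all, summed to 9225 to 16728 in rESC-RPC2 and 17531 to 42941 in rESC-RPC1, against 702 to 795 in P-RPC. Of the 5 tested, 3 were lower in rESC-RPC2 than in rESC-RPC1 and 2 were not called. Those 2, Tagln (means 6914 in rESC-RPC2 and 3993 in rESC-RPC1) and Acta2 (1539 and 869), went the other way. Dcn and Lum, which did not pass the filter, had lower signals in both rESC-RPC groups than in P-RPC. Dcn was under the threshold on all 9 arrays, and Lum reached it on 1. Pdgfrb, which did not pass either, had higher signals in both (means 81.2 in rESC-RPC2, 125 in rESC-RPC1 and 40.0 in P-RPC). The 7 microglia markers summed to 164 to 259.9 in rESC-RPC2, 73.0 to 203 in rESC-RPC1 and 1266 to 1460.3 in P-RPC. The 9 astrocyte and radial glia markers summed to 35891 to 37176 in rESC-RPC2, 39827 to 53209.9 in rESC-RPC1 and 16156 to 19804 in P-RPC, and the 8 cell cycle genes to 13566 to 16409.6 in rESC-RPC2, 17499 to 20149.8 in rESC-RPC1 and 35797 to 37877 in P-RPC. Each sum leans on its strongest probe sets, and Vim gave most of the glial one (means 24328 in rESC-RPC2 and 26290 in rESC-RPC1). In P-RPC, Neurod1 (mean 13392) gave most of the photoreceptor sum and Pax6 (mean 13972.5) most of the amacrine sum. The study used Pax6 as a retinal progenitor marker. Of the 7 glial markers tested, 4 were lower in rESC-RPC2 than in rESC-RPC1 and 0 higher (median log2 difference -2.01). Among them Gfap averaged 979 in rESC-RPC2 and 3689 in rESC-RPC1. The part of these cell types in the differences above was not tested. P-RPC replicate 1 stood apart in the 8 lens genes, with a sum of 95777 against 1662 and 5157 in the other P-RPC arrays, and 132 to 236 in rESC-RPC2 and 136 to 211 in rESC-RPC1. Without it no log2 difference of the 7 precursors from P-RPC moved by more than 0.316, the move of Npvf, whose P-RPC signals all lay under the threshold.

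Replicates of rESC-RPC1 spread more than those of the other groups. Over all genes tested, the median SD on the log2 scale was 0.137 in rESC-RPC2, 0.179 in rESC-RPC1 and 0.104 in P-RPC, and the SD was over 0.5 for 3.97% of genes in rESC-RPC2, 9.14% in rESC-RPC1 and 2.20% in P-RPC. Among the 7 precursors it was over 0.5 in rESC-RPC1 for Tac1 (1.36), Gal (0.946), Npy (0.853), Npvf (0.641) and Cartpt (0.518), and below that for Penk (0.431) and Sst (0.256). In rESC-RPC2 only Penk exceeded 0.5 (0.593), and in P-RPC only Npvf (0.73), which was under the threshold there. The highest rESC-RPC1 array had 6.22 times the Tac1 signal of the lowest, and 3.65 times the Gal signal.

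Replicate 2 of rESC-RPC1 was the highest of its group for 5 of the 7 genes (Npvf, Npy, Gal, Tac1 and Penk) and the lowest for the other 2, Sst and Cartpt, where it lay 0.28 and 0.60 under the group mean on the log2 scale. Over all genes tested, it was the highest for 35.8% and the lowest for 39.0%. It lay above the group mean by 1.14 for Tac1, 1.02 for Gal and 0.89 for Npy, and replicate 3 lay below it for the same 3 genes. The same array had the highest summed pan-neuronal signal of its group, 31787 against 24335 and 22197. Its mesenchyme and smooth muscle sum was the lowest, 17531 against 28413 and 42941. Its astrocyte and radial glia sum was 53209.9, against 44339 and 39827. The part of these differences in the spread of the precursors was not tested.

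**Figure D3:**
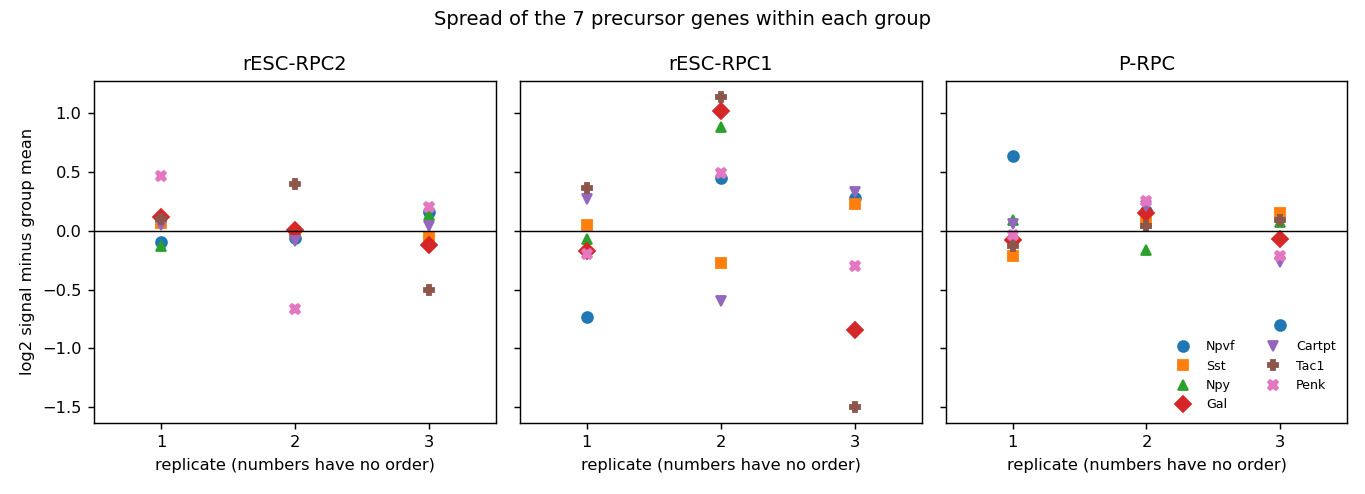
Log2 signal of the 7 tested precursor genes on each array minus the gene's mean over the 3 arrays of its group (vertical axis), with 1 panel per group and 1 symbol per gene; the replicate numbers on the horizontal axis have no order. In rESC-RPC1 the points of Tac1, Gal and Npy lie 1.14, 1.02 and 0.89 above 0 on replicate 2 and below it on replicate 3, while in rESC-RPC2 the widest points are those of Penk and Tac1.

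Other precursors were examined through a list of 51, of which 38 were on the array and 7 passed the filter: Cck, Pnoc, Pmch, Adm, Nppa, Apln and Nucb2. All 7 reached the threshold on every rESC-RPC2 array, 5 on every rESC-RPC1 array, and 1, Nucb2, on every P-RPC array. With limma, 5 of 7 rose in rESC-RPC2 against P-RPC (71.4%, beside 23.7% of all genes) and 5 in rESC-RPC1 against P-RPC (71.4%, beside 21.5%), and 0 fell in either. The median log2 difference of the 7 was 1.25 and 1.37. Between rESC-RPC2 and rESC-RPC1, 3 were higher and 1 lower (57.1%, beside 14.3%), with a median of 0.86. This list too was made with earlier results of these data known, and a gene could pass through the group in which it was high. These shares are therefore not a result about the list, and they do not describe the other 31 precursors on the array.

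Pmch encodes melanin-concentrating hormone, a feeding and sleep peptide of the lateral hypothalamus. Its signals were 1114, 834 and 1894 in rESC-RPC2 and 307, 447 and 375 in rESC-RPC1, with 49.4, 11.7 and 34.0 in P-RPC, where all arrays were under the threshold. Against P-RPC it rose at least 9.85-fold in rESC-RPC2 (limma adjusted p = 4.17e-06) and at least 3.03-fold in rESC-RPC1 (adjusted p = 6.16e-05). It passed the filter through the rESC-RPC arrays, so these p-values describe these arrays only. Its log2 difference of 1.70 between rESC-RPC2 and rESC-RPC1 (SE 0.469, limma adjusted p = 0.0126) was no longer called without rESC-RPC2 replicate 3 (1.37, adjusted p = 0.0596).

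Pnoc, the precursor of nociceptin, averaged 520.3 in rESC-RPC2, 230.2 in rESC-RPC1 and 103 in P-RPC, and rose at least 4.23-fold and at least 1.85-fold against P-RPC. The rESC-RPC2 cells also exceeded rESC-RPC1 by 1.19 on the log2 scale (limma adjusted p = 0.000248). The Pnoc difference of rESC-RPC1 from P-RPC was no longer called without rESC-RPC1 replicate 2 (0.97) or with values raised to the threshold (0.89). Cck, which encodes cholecystokinin, averaged 195 in rESC-RPC2, 92.4 in rESC-RPC1 and 92.4 in P-RPC, so only rESC-RPC2 passed the threshold, at least 1.56-fold above either (limma adjusted p = 0.00202 against P-RPC and 0.00332 against rESC-RPC1), and its difference from P-RPC was 0.96 and not called without P-RPC replicate 3. It passed the filter through the 3 rESC-RPC2 arrays alone, so it was not tested without any 1 of them, and with values raised to the threshold neither difference was called (0.64 each). Adm, the precursor of the vasodilator adrenomedullin, averaged 203, 335 and 15.7 in rESC-RPC2, rESC-RPC1 and P-RPC, and rose against P-RPC at least 1.61-fold in rESC-RPC2 and at least 2.52-fold in rESC-RPC1. With values raised to the threshold its difference in rESC-RPC2 was 0.69 and not called (limma adjusted p = 0.084).

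Apln, which encodes apelin, was the 1 precursor lower in rESC-RPC2 (179 ± 20.0) than in rESC-RPC1 (443 ± 82.4; SD, n = 3 each), with a log2 difference of -1.30 (limma adjusted p = 0.000275). Nucb2, the precursor of nesfatin, averaged 1521 ± 59.1 in rESC-RPC2, 1687 ± 449 in rESC-RPC1 and 640.3 ± 48.5 in P-RPC (SD, n = 3 each), and rose by 1.25 and 1.37 on the log2 scale against P-RPC. Adm, Apln and Nucb2 are known from vessel and many other non-neuronal cells as well as from neurons. Nppa, which encodes atrial natriuretic peptide, was not called in any comparison. It reached the threshold only on the rESC-RPC2 arrays. Its log2 difference there was 0.95 against P-RPC (limma adjusted p = 0.00334) and 0.86 against rESC-RPC1 (adjusted p = 0.008), both under the limit of 1.

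**Figure D4:**
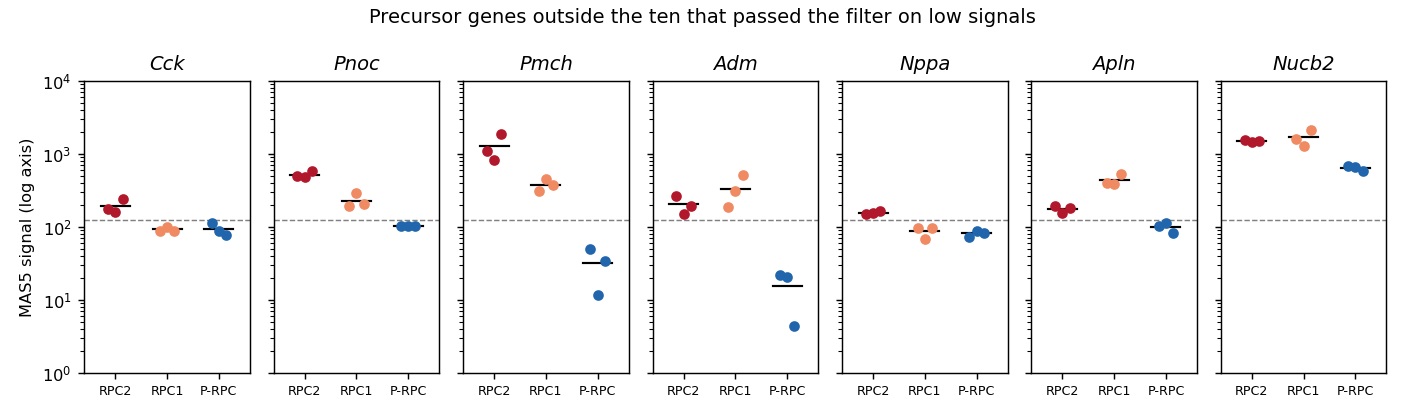
MAS5 signal (log axis) of the 7 other precursor genes that passed the filter, on each array of rESC-RPC2, rESC-RPC1 and P-RPC from left to right; points are single arrays, bars are group means (n = 3 each) and the dashed line is the threshold of 123. Pmch and Pnoc stand in the order rESC-RPC2, rESC-RPC1, P-RPC, and Nucb2 is above the threshold on all 9 arrays.

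The enzymes and granule proteins that make and store peptides were measured by 25 of 27 listed genes, of which 22 passed the filter. Among the convertases, Pcsk1 was not named on the array, and Pcsk2 reached the threshold on only 1 rESC-RPC2 array and was not tested. In rESC-RPC2 against P-RPC 9 rose, 1 fell and 12 were not called (45.5% called, beside 23.7% of all genes, median log2 difference 0.90). In rESC-RPC1 against P-RPC 7 rose, 1 fell and 14 were not called (36.4%, beside 21.5%, median 0.48). Between the rESC-RPC groups 8 were higher in rESC-RPC2, 2 lower, and 12 were not called (45.5%, beside 14.3%, median 0.46). This list was made with earlier results of these data known, so these shares are not a result about it.

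Scg2, a granin of dense-core granules and itself the precursor of secretoneurin, was called in all 3 comparisons. Its signals were 2047, 2559 and 2239 in rESC-RPC2, 815, 871 and 843 in rESC-RPC1, and 159, 158 and 150.3 in P-RPC. The log2 difference was 3.87 for rESC-RPC2 against P-RPC (SE 0.102, limma adjusted p = 2.95e-09), 2.44 for rESC-RPC1 against P-RPC (adjusted p = 4.45e-08) and 1.43 between the rESC-RPC groups (adjusted p = 4.44e-06). The 3 groups stood in the same order as for Npvf and Sst, without overlap.

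Vgf, a neurotrophin-induced granule protein, rose by 3.01 on the log2 scale in rESC-RPC2 and by 2.17 in rESC-RPC1 against P-RPC. Its rESC-RPC1 signals were 499, 347 and 1569. The rESC-RPC1 call was lost with the methods' t-test after Benjamini-Hochberg (adjusted p = 0.06). Qpct, the glutaminyl cyclase that caps peptide ends, rose by 2.33 and 2.05, and the endocrine granule protein Resp18 by 1.99 and 1.38. In rESC-RPC1 against P-RPC the carboxypeptidase Cpd (1.53) and the amidating enzyme Pam (1.40) rose, and their log2 differences in rESC-RPC2 against P-RPC, 0.59 and 0.63, were not called. Scg5, the chaperone of a prohormone convertase, averaged 3692 ± 325 in rESC-RPC2, 1303 ± 155 in rESC-RPC1 and 1282 ± 86.8 in P-RPC (SD, n = 3 each). Its log2 difference was 1.52 for rESC-RPC2 against P-RPC and 1.51 against rESC-RPC1, and 0.02 for rESC-RPC1 against P-RPC. Between rESC-RPC2 and rESC-RPC1, chromogranin A (Chga, 1.25) and the convertase inhibitor Pcsk1n (1.19) were also higher.

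Cadps2, a priming factor for granule release, was the other gene called in all 3 comparisons, and it went the other way against P-RPC. It averaged 170.5 ± 68.4 in rESC-RPC2, 52.9 ± 29.1 in rESC-RPC1 and 1371 ± 85.7 in P-RPC (SD, n = 3 each). Its log2 difference was -3.08 for rESC-RPC2 against P-RPC (limma adjusted p = 2.90e-05), and in rESC-RPC1, where every array was under the threshold, it was at least 11.2-fold lower. Between the rESC-RPC groups, Cadps2 was higher in rESC-RPC2 by 1.75 on the log2 scale (limma adjusted p = 0.0021). That call was lost with values raised to the threshold (0.405, limma adjusted p = 0.164). Its paralog Cadps rose by 1.63 in rESC-RPC2 against P-RPC. Cpe, the main carboxypeptidase of granules, was measured on all arrays with means of 13428 in rESC-RPC2, 8509 in rESC-RPC1 and 10094 in P-RPC and was called in 0 of 3 comparisons. The convertase Pcsk6 (-1.04) and the vesicular monoamine transporter Slc18a2 (-1.03) were lower in rESC-RPC2 than in rESC-RPC1. Neither was called without rESC-RPC1 replicate 3 (-0.89 and -0.86), and each lost the call without other single arrays too.

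**Figure D5:**
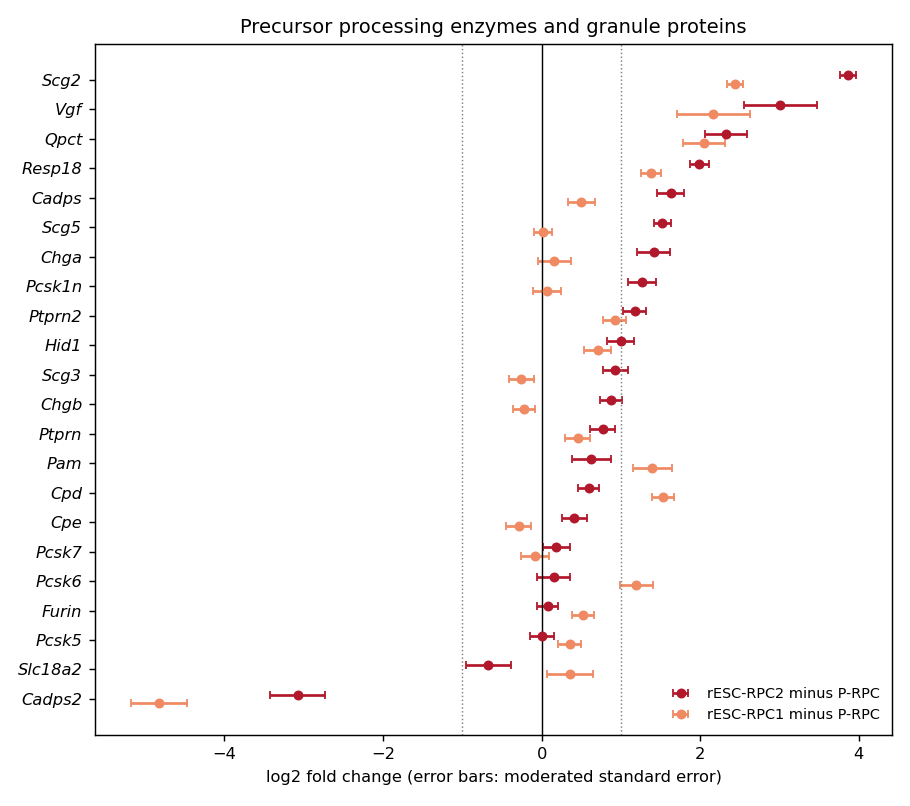
Log2 fold change (horizontal axis) of the 22 tested genes for precursor processing and granules, for rESC-RPC2 and rESC-RPC1 each minus P-RPC; points are limma's estimates, bars their moderated standard errors, and dotted lines mark 1 and -1. Scg2 lies furthest right, at 3.87 and 2.44, and Cadps2 is the 1 gene beyond the left line in both.

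Receptors for the 10 peptides and their nearest relatives were mostly under the threshold. Of 33 listed receptor genes 28 were on the array and 2 passed the filter, the somatostatin receptor Sstr1 and Oprl1, an opioid receptor relative that binds nociceptin, the product of Pnoc and of none of the 10. Oprl1 averaged 425 ± 27.6 in rESC-RPC2, 104 ± 17.9 in rESC-RPC1 and 96.4 ± 6.84 in P-RPC (SD, n = 3 each). It reached the threshold on 3, 1 and 0 of these arrays, and so passed the filter through rESC-RPC2. In rESC-RPC2 it rose at least 3.47-fold against P-RPC (limma adjusted p = 2.65e-06) and stood 2.04 above rESC-RPC1 on the log2 scale (adjusted p = 1.06e-05), with the rESC-RPC2 arrays above all others. Sstr1 had signals of 321, 415 and 376 in rESC-RPC2, 197, 246 and 172 in rESC-RPC1, and 112, 126 and 65.3 in P-RPC. It rose by 1.92 in rESC-RPC2 against P-RPC (limma adjusted p = 7.59e-05) and by 1.06 in rESC-RPC1 (adjusted p = 0.00396), but the second call was lost without rESC-RPC1 replicate 2 (0.92) and without P-RPC replicate 3 (0.78), and with values raised to the threshold (0.71). Oprl1 and Sstr1 each have 3 probe sets, and only the probe set used here passed the filter. Receptors too were listed with earlier results of these data known, so these calls are not a result about the list. The Npvf receptor Npffr1 was under the threshold on all 9 arrays.

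Among peptidases that break down peptides, 15 of 16 listed genes were on the array and 8 passed the filter. Against P-RPC, 2 of 8 rose in rESC-RPC2 (25.0%, beside 23.7% of all genes, so near the background) and 5 in rESC-RPC1 (62.5%, beside 21.5%), and 0 fell. Between rESC-RPC2 and rESC-RPC1 3 were lower and 0 higher (37.5%, beside 14.3%). Peptidases too were listed with earlier results known and could pass the filter through 1 group, so these shares are not a result about the list. Ece1, the endothelin-converting enzyme that also cuts tachykinins and somatostatin in endosomes, averaged 488 ± 40.1 in rESC-RPC2, 1746 ± 108 in rESC-RPC1 and 265 ± 25.8 in P-RPC (SD, n = 3 each). It rose in rESC-RPC1 against P-RPC by 2.72 on the log2 scale (limma adjusted p = 3.83e-08) and was lower in rESC-RPC2 than in rESC-RPC1 (-1.84, adjusted p = 2.12e-06). Nln, or neurolysin, rose by 1.42 in rESC-RPC2 and 1.37 in rESC-RPC1. Mme, or neprilysin, reached the threshold on 2 of 3 arrays in each rESC-RPC group and on 0 of 3 in P-RPC, and its call in rESC-RPC2 (1.82, limma adjusted p = 0.00883) was lost with values raised to the threshold (0.18, adjusted p = 0.465). Its call in rESC-RPC1 (1.59, adjusted p = 0.0182) was lost without rESC-RPC1 replicate 1 (adjusted p = 0.0641), rESC-RPC1 replicate 3 (adjusted p = 0.0665) or P-RPC replicate 3 (adjusted p = 0.0709), and with values raised to the threshold (0.38).
Enpep, the aminopeptidase that trims angiotensin, reached the threshold only on the 3 rESC-RPC1 arrays, at least 2.18-fold above both rESC-RPC2 and P-RPC. The call of Prcp between rESC-RPC2 and rESC-RPC1 (-2.13, limma adjusted p = 0.0269) was lost without rESC-RPC2 replicate 3 (adjusted p = 0.0911) or rESC-RPC1 replicate 1 (adjusted p = 0.0965).

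Transcription factors known from peptide-making neurons were listed too, 42 in all, of which 27 were on the array and 19 passed the filter. In rESC-RPC2 against P-RPC 10 rose and 7 fell (89.5% called, beside 23.7% of all genes), in rESC-RPC1 against P-RPC 7 rose and 7 fell (73.7%, beside 21.5%), and between the rESC-RPC groups 5 were higher in rESC-RPC2 and 1 lower (31.6%, beside 14.3%). The list was made with earlier results of these data known. A gene could also pass the filter through the group in which it was high, so these shares are not a result about the list. Without P-RPC replicate 1, 14 and 11 were called in the 2 comparisons with P-RPC, against 17 and 14 with it. Lhx9, Nhlh1 and Tbx3 were lost, since fewer than 3 arrays then reached the threshold and they were not tested. These genes were lost in the same way without either of the other P-RPC arrays.

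Nkx2-1, a homeodomain factor of the ventral forebrain and hypothalamus, had signals of 1805, 2200 and 2237 in rESC-RPC2, 3315, 3584 and 2516 in rESC-RPC1, and 27.6, 38.6 and 25.5 in P-RPC. Against P-RPC it rose at least 16.9-fold in rESC-RPC2 and at least 25.3-fold in rESC-RPC1 (limma adjusted p = 6.28e-09 and 3.87e-09). Every P-RPC array was under the threshold, so Nkx2-1 passed the filter through the rESC-RPC arrays, and these p-values describe these arrays only. Nkx2-2, a ventral homeodomain factor, rose at least 3.22-fold in rESC-RPC2 and 2.78-fold in rESC-RPC1, and Dlx1, a factor of forebrain GABAergic interneurons, rose by 5.12 and 4.07 on the log2 scale. Pou3f4, a POU factor of the developing brain, averaged 147 in rESC-RPC2, 97.0 in rESC-RPC1 and 3.68 in P-RPC and was called in both rESC-RPC groups, but not with values raised to the threshold (0.26 and 0.03). Among the factors that fell against P-RPC were the eye field factor Rax, with means of 141 in rESC-RPC2, 249 in rESC-RPC1 and 4623 in P-RPC, and Lhx9 and Tbx3, at least 15.4-fold and 7.84-fold lower in both rESC-RPC groups. Six6, an eye field factor also used in the hypothalamus, averaged 1429 ± 252 in rESC-RPC2, 495 ± 148 in rESC-RPC1 and 4944 ± 84.4 in P-RPC (SD, n = 3 each).

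Between rESC-RPC2 and rESC-RPC1, the highest differences in this list were those of Isl1 (1.74), a factor of arcuate and other neurons, Six6 (1.56), Foxp2 (1.48) and Arnt2 (1.30), a partner of Sim1 in hypothalamic neurons. Dlx1 was higher by 1.06 (limma adjusted p = 0.00431), but by 0.72 without rESC-RPC1 replicate 3. Fezf2, a forebrain projection neuron factor, was under the threshold on all rESC-RPC2 arrays and was lower there, at least 2.30-fold against rESC-RPC1 and at least 3.29-fold against P-RPC.

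The genes whose pattern over the 9 arrays was most like that of each precursor were found by the root mean square (RMS) difference between log2 profiles, each centred on its own mean, among 9956 tested genes. For Sst the closest was LOC102554253, an uncharacterised locus (RMS difference 0.178), with means of 3455 in rESC-RPC2, 488 in rESC-RPC1 and 202 in P-RPC, followed by the myosin heavy chain Myh7 (0.257). No gene came as close to Npvf, for which the nearest were LOC102555617 (1.10) and LOC102554253 (1.17). Npy was nearest to Mamdc2 (0.218) and Rnf128 (0.268). Gal was nearest to the transcription factor Ebf1 (0.269), which averaged 37.5 in rESC-RPC2, 52.3 in rESC-RPC1 and 945 in P-RPC, and to Ankrd33b (0.343). Cartpt was nearest to Gnb3 (0.243), a G protein subunit of cones and bipolar cells, and to Rasa4 (0.343). The nearest to Tac1 were Cgnl1 (0.312) and Fezf2 (0.375), and to Penk the DNA replication gene Prim2 (0.248) and Cdca4 (0.250). The measure describes these arrays only, and its points share the group differences that set most patterns here.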

How the data were processed

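Total RNA of rESC-RPC2, rESC-RPC1 and P-RPC (3 arrays each) was hybridised to Affymetrix Rat Genome 230 2.0 arrays. The deposited numbers are linear intensities, MAS5 signals per probe set computed by the authors (version not given in the sources used here). On every array the mean after trimming 2% from each end was 500.2, with medians of 113 to 128. The 10 genes and all gene lists were chosen with earlier results of these data known, so p-values of listed genes are not independent tests.

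Signals under 1 were set to 1, log2 was taken, and no rescaling was done. The 57 controls among 31099 probe sets were left out. Of the rest, 20826 carry 1 gene symbol in the platform annotation, 436 carry several and 9780 carry none, and only those with 1 symbol were used (20758 with an ID found in the RefSeq table). The threshold lay at the 50th percentile of probe set signals (signal 123, log2 6.94) and was required on at least 3 of 9 arrays, which kept 17048 probe sets and 9956 genes, each read from the probe set with its highest mean signal. Arrays carry no read depth, so their number and signals near background limit the precision. R 4.3.3 and limma 3.58.1 (lmFit, eBayes with trend) fitted 1 mean per group over 9 arrays, and a call required a Benjamini-Hochberg adjusted p under 0.05 and a log2 difference of at least 1. The fit was tested on simulated data. Promoter windows came from RefSeq. Genes outside the 10 were named by rule: in each list and comparison up to 4 called genes per direction with the largest differences, precursors with a group mean at the 90th percentile of signals (0 reached it), processing and receptor genes called in all 3 comparisons, and the 2 nearest patterns. Cadps, Cpe, Pam, Pcsk1, Pcsk2, Pcsk1n, Nppa and Npffr1 were named after the values were seen. No scan date or batch is given for the arrays.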

Additional observations from a re-analysis of the deposited data

How the results depend on the processing

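Counts of called genes were recomputed with quantile normalization, median centring, a floor of 16, values raised to the threshold, the mean of all probe sets, no filter, a filter at the 75th percentile (signal 571), a replicate block, limma without a trend, the methods' t-test, and each array left out. The 7 precursors' 21 differences were recomputed under 15 of these settings (not the filters, the trend or the t-test). Of the 315 values, 313 stayed within 1 SD of the arrays, pooled over the 3 groups, 2 moved and 0 called differences turned round. Most of this count was fixed in advance, so it does not measure stability. Neither the replicate block nor the mean of probe sets could change these differences. Leaving out 1 of 3 arrays cannot move them by more than that SD. The 2 that moved were those of Npvf against P-RPC with values raised to the threshold, 5.47 in rESC-RPC2 and 1.01 in rESC-RPC1. Without single rESC-RPC1 arrays the uncalled Tac1 difference from P-RPC ran from -1.17 to 0.14, that of Penk from -0.29 to 0.10, and Gal in rESC-RPC2 against rESC-RPC1 from -1.14 to -0.21. Calls were gained for Tac1 in rESC-RPC1 against P-RPC (-1.17) and Npy in rESC-RPC2 against rESC-RPC1 (1.06) without rESC-RPC1 replicate 2, and for Gal between the rESC-RPC groups (-1.14) without rESC-RPC1 replicate 3. Deviations of arrays with the same replicate number correlated at -0.04 to 0.27, and above 0.1 in 1 of 9 pairs, replicate 2 of rESC-RPC2 and rESC-RPC1. With 3 arrays per group this cannot settle whether arrays of the same number shared an experiment. Under the replicate block, 2363, 2148 and 1426 genes were called in rESC-RPC2 against P-RPC, rESC-RPC1 against P-RPC and rESC-RPC2 against rESC-RPC1, beside 2361, 2144 and 1421 without it. The methods' t-test at their fold and p thresholds called 2341, 2094 and 1333 genes, and 2302, 2005 and 1135 after Benjamini-Hochberg. Median centring turned the split in rESC-RPC2 against P-RPC to 1180 higher and 1169 lower, from 1069 and 1292.

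Counts that moved by over 1.5 times are given in the same order of comparisons. The filter at the 75th percentile, with 6332 genes left to test, called 1372, 1235 and 745 of all genes, 2, 2 and 1 other precursors, 6 processing genes in rESC-RPC2 against P-RPC and 6 in rESC-RPC2 against rESC-RPC1, 1, 3 and 1 peptidases, and 10, 8 and 3 transcription factors, and left no receptor to test. With no filter 11 and 8 other precursors, 4 and 3 receptors were called against P-RPC, and 4 peptidases in rESC-RPC2 against P-RPC. With values raised to the threshold 3 other precursors and 1 peptidase were called in rESC-RPC2 against P-RPC, and 0 receptors in rESC-RPC1 against P-RPC, where the t-test after Benjamini-Hochberg also called 0 and limma 1. With 1 array left out, the counts ran from 2 to 4 other precursors in rESC-RPC2 against rESC-RPC1, from 0 to 1 receptors in rESC-RPC1 against P-RPC and from 1 to 2 in rESC-RPC2 against rESC-RPC1, from 2 to 3, 2 to 6 and 1 to 3 peptidases in the 3 comparisons. The lowest were 2 precursors without rESC-RPC2 replicate 3, and 2 peptidases in rESC-RPC1 against P-RPC without rESC-RPC1 replicate 3. Why these counts move was not tested, apart from the fewer genes that a stricter filter leaves. Signals near the threshold limit the folds of Gal and Cartpt in the rESC-RPCs and of Npvf in P-RPC.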

Other observations

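Npy and Npvf lie on the same chromosome, 4, in RefSeq (build GRCr8), with 7 protein-coding genes annotated between them. Of these, 3 were named on the array and 2 passed the filter. In rESC-RPC2 against P-RPC, where both precursors were higher, Osbpl3 differed by -1.03 on the log2 scale and Pals2 by -0.75. The genes between them were looked up after the values of Npy and Npvf had been seen.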
